A study of Mus musculus with 45 samples.

Results

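The Bcl2 family of death regulators was followed through 9 conditions of a mouse neuron experiment. The members were the 10 genes Bcl2, Bcl2l1, Bcl2l2, Mcl1, Bax, Bak1, Bcl2l11, Bbc3, Pmaip1 and Hrk, taken as the rows of the count table whose Ensembl identifiers carry these mouse symbols. All 10 were found, out of 54532 rows of which 37048 had at least 1 read, and each had reads in all 45 libraries, the lowest being 79 reads for Bcl2l11. The rule uses no measured value. RNA was sequenced from primary hippocampal neurons of newborn C57BL/6N mice. The labels give treatment on day 10 or 11 in vitro, and the study's methods give day 11 for the sequenced cells. The cultures received AraC, which kills dividing cells, early in culture. The 9 conditions were an untreated control, the GABA type A receptor antagonist bicuculline (Bic, 50 µM), which induces action potential (AP) firing, for 0.5, 1 or 2 h, and 5 interventions in which Bic stayed on the cells. In the short protocol (SP), the cells spent 0.5 h in Bic alone and 0.5 h in Bic and tetrodotoxin (TTX, 1 µM), which silences AP firing, or Bic, TTX and NMDA (30 µM), the latter to activate extrasynaptic NMDA receptors. In the long protocol (LP), both phases lasted 1 h, and the agent added for the second was TTX, TTX/NMDA or the glutamate uptake inhibitor TBOA (50 µM). Each condition had 5 libraries, 1 from each of the culture preparations numbered 1, 3, 6, 7 and 8, so n = 5 throughout. The preparation is the unit of replication.

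Proteins of this family decide whether the outer mitochondrial membrane stays closed. The pro-survival proteins Bcl-2, Bcl-xL (Bcl2l1), Bcl-w (Bcl2l2) and Mcl-1 bind and restrain the effectors Bax and Bak (Bak1), which otherwise form pores that release cytochrome c and start the caspase cascade. The BH3-only proteins Bim (Bcl2l11), Puma (Bbc3), Noxa (Pmaip1) and Harakiri (Hrk) bind the pro-survival proteins, Noxa mainly Mcl-1, and several of them are known to be controlled by transcription in stressed or trophic factor-deprived neurons. Mcl-1 is turned over rapidly, so its amount depends on ongoing mRNA supply. Much of the control of this family acts on the proteins, which were not measured here.

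The upstream sequences of the pro-survival member Mcl1, the BH3-only members Bcl2l11 and Hrk and the effector Bax are shown first. Among the 9 members whose windows were searched, these had the widest span of condition means in their role. The start regions of members that moved together, and of those that moved apart, can thus be set side by side. Pmaip1 was not searched, although its condition means spanned more than those of Hrk (0.87 against 0.61 on the log2 scale). The sequences are the 250 bases before the start given by RefSeq on GRCm38.p6, read 5′ to 3′ on the gene's own strand. Mcl1 is shown at chr3:95658471-95658720 (plus strand), Bcl2l11 at chr2:128125788-128126037 (plus strand, the more upstream of its 2 starts), Hrk at chr5:118169514-118169763 (plus strand) and Bax at chr7:45466899-45467148 (minus strand). Capitals mark matches on either strand to TGACG (the core of a cAMP response element), TGANTCA (AP-1), CACGTG (E-box), TGTTTAC (FoxO), CCGCCC (GC box), GCGNGGGCG (Egr) and the CArG box of serum response factor.
Mcl1: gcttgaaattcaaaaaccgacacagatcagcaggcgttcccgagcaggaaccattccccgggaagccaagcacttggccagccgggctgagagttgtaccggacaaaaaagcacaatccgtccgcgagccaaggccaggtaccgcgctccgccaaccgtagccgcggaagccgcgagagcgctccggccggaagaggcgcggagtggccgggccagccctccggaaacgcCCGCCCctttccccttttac
Bcl2l11: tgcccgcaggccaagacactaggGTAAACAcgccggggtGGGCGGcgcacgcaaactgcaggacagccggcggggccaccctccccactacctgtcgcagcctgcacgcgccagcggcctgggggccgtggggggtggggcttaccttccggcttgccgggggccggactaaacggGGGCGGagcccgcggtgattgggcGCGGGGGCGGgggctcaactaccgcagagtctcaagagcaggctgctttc
Hrk: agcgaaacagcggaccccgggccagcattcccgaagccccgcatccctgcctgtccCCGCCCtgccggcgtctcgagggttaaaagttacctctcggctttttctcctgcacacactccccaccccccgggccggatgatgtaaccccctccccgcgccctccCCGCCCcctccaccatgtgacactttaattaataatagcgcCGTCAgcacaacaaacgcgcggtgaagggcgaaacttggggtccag
Bax: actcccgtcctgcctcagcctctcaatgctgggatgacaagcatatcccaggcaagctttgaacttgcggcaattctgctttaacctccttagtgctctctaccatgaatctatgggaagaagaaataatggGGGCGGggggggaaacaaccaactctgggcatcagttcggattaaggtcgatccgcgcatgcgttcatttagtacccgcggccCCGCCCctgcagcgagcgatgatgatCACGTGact
Mcl1 and Bcl2l11, the members that rose within 1 h of AP firing, shared only GC boxes in these windows, and neither held a match to the cAMP response element core, to AP-1 or to the CArG box. Bcl2l11 also held a FoxO match on its minus strand at −227 to −221 and an Egr match at −50 to −42, where −1 is the base before the start, and the Egr match overlaps a GC box. Hrk held TGACG on its minus strand at −46 to −42, and Bax held CACGTG at −9 to −4. The search covered 14 windows for 9 of the 10 members and left out Pmaip1. Among these 14, CCGCCC was in 10, TGACG in 3, GCGNGGGCG in 3, CACGTG in 2, TGTTTAC in 2, and TGANTCA and the CArG box in 0. The windows are not separate genes, since Bcl2l1 and Bbc3 gave 3 each and Bcl2l11 gave 2. Those with GCGNGGGCG came from Bcl2l11 and Bbc3 alone, and Bbc3 also held CACGTG and TGTTTAC. Of all 32851 windows of that length in the table, 32.7% held CCGCCC, 17.8% TGACG, 4.7% GCGNGGGCG, 6.02% CACGTG, 3.17% TGTTTAC, 6.75% TGANTCA and 1.47% a CArG box. A match describes letters in a window and is not a binding site.

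Library totals ranged from 11316580 to 81129276 counts (median 26239614), so that the least abundant member, Bcl2l11, was counted between 79 and 1437 times and the most counted, Hrk, between 1461 and 13404 times. The 6 activity-induced genes used to check the labels (Fos, Arc, Npas4, Nr4a1, Egr1 and Bdnf) were all called higher than in the control after 1 h and after 2 h Bic, and 5 of 6 after 0.5 h. Libraries of 1 preparation deviated together from their condition means, but preparation 3 hardly did so between 0.5 h Bic and the control (r = 0.04), preparation 6 of SP TTX did not deviate with preparation 6 of SP TTX/NMDA (r = −0.01 across 13592 genes) and preparation 6 of LP TBOA did not deviate with that of 2 h Bic (r = −0.22). Markers of other cells moved with the LP TTX/NMDA condition. The summed level of 5 astrocyte markers was 1130 ± 349 CPM (counts per 1000000 counts of a library; SD) there, from 772 to 1621 over the 5 libraries, against 632 ± 198 with LP TTX, from 429 to 905. All 5 passed the test as higher than with LP TTX. That of 5 oligodendrocyte lineage markers was 241 ± 68.3 CPM against 139.5 ± 29.9 CPM, with 4 of 5 higher. The 8 neuron markers summed to 6119 ± 223 against 7215 ± 339 CPM, with 3 of 8 lower (Map2, Syn1 and Slc17a7) and 0 higher, although a fit that took the preparation as a block called Gad1 and Gad2, markers of inhibitory neurons, higher. Gad1 was also called higher with LP TTX/NMDA than after 2 h Bic, with LP TBOA or in the control. Between TTX/NMDA and TTX in the SP, 0 of 5 astrocyte markers were called, while Gad1 was higher and Map2 and Slc17a7 were lower. The 6 microglia markers summed to between 4.30 and 8.58 CPM and the 3 endothelial markers to between 0.890 and 3.00 CPM in all libraries, with P2ry12 at 0 in 6 and Cldn5 at 0 in 27 of them. In these bulk libraries, fewer cells of a type and less RNA per cell cannot be told apart, and the part of the glial markers in any result with LP TTX/NMDA was not tested.

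Levels were compared between genes only after division by exon length, as TMM-scaled CPM per kilobase. The length is that of all exon bases. Of these, 12.2% in Bax and 13.3% in Bcl2l2 are shared with same-strand genes, and reads there were not counted. The per-length levels of Bax and Bcl2l2 are therefore too low to that extent. Their places in the order and the sums by role given below were not corrected for it. In the control, Hrk (28.5 ± 4.32), Bax (26.8 ± 5.39), Bcl2l1 (26.1 ± 1.67), Mcl1 (26.1 ± 2.70) and Bcl2l2 (22.2 ± 2.61 CPM per kilobase) formed a top group whose neighbours overlapped over the 5 libraries. Bbc3 followed at 13.3 ± 3.53, Bak1 at 7.03 ± 0.37, Pmaip1 at 3.90 ± 0.69, Bcl2 at 1.40 ± 0.21 and Bcl2l11 at 0.80 ± 0.07 CPM per kilobase, and of these last 5 none overlapped the next, while Bbc3 overlapped Bcl2l2. Bak1 was thus the less abundant effector, and Bcl2 itself the least abundant pro-survival transcript. After 2 h Bic, Mcl1 alone headed the order in all 5 libraries, at 49.0 ± 1.41 CPM per kilobase against 27.6 ± 3.63 for Hrk, which came next without overlap. Bcl2l11 then reached 2.30 ± 0.29 CPM per kilobase and overlapped Bcl2 at 1.73 ± 0.22. With LP TTX/NMDA, Mcl1 still ranked first in every library (42.9 ± 3.33), Bax second in every library (33.6 ± 4.18), and Hrk had moved to the fifth place by mean (19.1 ± 4.11 CPM per kilobase).

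**Figure D1:**
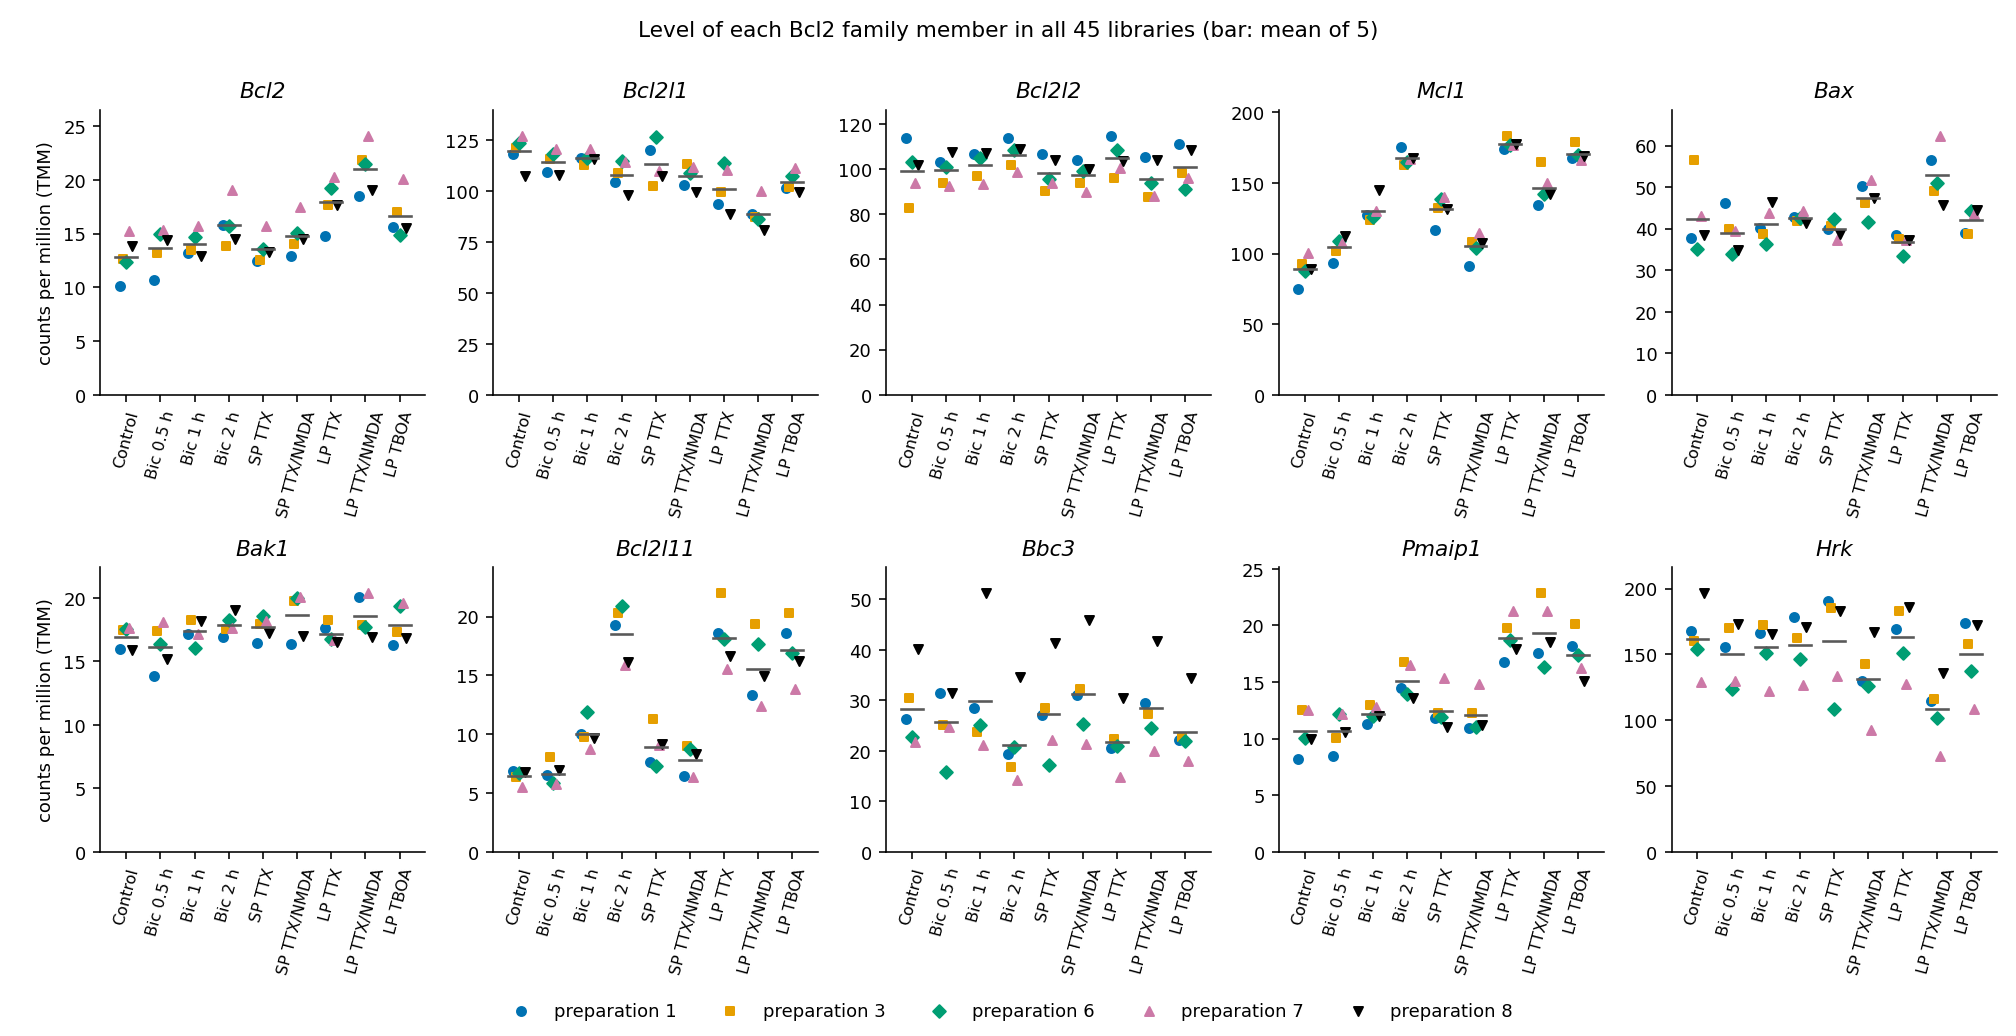
TMM-scaled CPM (vertical axis, from 0) of each member in the 9 conditions (horizontal axis); each point is 1 library, coloured by culture preparation, and bars are means of 5. Mcl1 goes from a mean of 89.1 in the control to 168 after 2 h Bic, Hrk drops to 108 with LP TTX/NMDA, and preparation 8 (black) is the highest for Bbc3 in every condition.

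How many members changed depended on the comparison. A gene was called when its adjusted p-value (from the quasi-likelihood test of edgeR, with Benjamini-Hochberg adjustment over all genes tested) was under 0.05, each comparison was made on its own 10 libraries, and comparisons that share a condition share its libraries. After 0.5 h Bic, 0 of 10 members were called (1 had an unadjusted p under 0.05, and DESeq2 also called 0), and 0.289% of all genes were. After 1 h, 2 members were called, both higher, where 1.16% of all genes were called and 0.965% were higher. After 2 h, 3 were called, all higher, against 9.02% of all genes and 4.24% that were higher. The passive effect compares TTX with Bic of the same total duration. It called 0 members in the SP, where 0.268% of all genes were called and 0 members had an unadjusted p under 0.05 or a DESeq2 call, and 2 members in the LP (1 higher, 1 lower), against 4.65% (3.03% higher, 1.62% lower). The active effect compares TTX/NMDA with TTX. It called 2 members in the SP (1 higher, 1 lower), against 4.28% of all genes (0.956% higher, 3.32% lower), and 3 in the LP (1 higher, 2 lower), against 23.3% (11.6% higher, 11.8% lower). The total effect compares TTX/NMDA with Bic, and called 1 member in the SP, which was lower, against 4.3% (3.41% lower), and 7 in the LP (4 higher, 3 lower), against 22.8% (11.7% higher, 11.1% lower). TBOA against 2 h Bic called 0 members by edgeR and by DESeq2 (1 had an unadjusted p under 0.05) and 0.602% of all genes. LP TTX/NMDA differed from LP TBOA in 5 members (2 higher, 3 lower), against 16.6% of all genes (8.6% higher, 7.99% lower), and from the control in 7 (5 higher, 2 lower), against 19.5% (10.9% higher, 8.55% lower). These shares of all genes include many of very low counts, whereas all members passed the filterByExpr filter of edgeR. Over the genes that pass it, the same test called 3 members against 47.7% in the LP active effect and 6 members against 46.6% in the LP total effect. The median log2 fold change over the 10 members was −0.06 in the LP active and −0.06 in the LP total effect, where it was 0.11 and 0.11 over all genes tested and −0.01 and 0.01 over genes of at least 1 CPM. Whether the active or the passive effect differed between the LP and the SP was tested as an interaction, which called 0 members in either case (1 each had an unadjusted p under 0.05, and DESeq2 also called 0), where 2.57% and 0.256% of all genes were called.

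Since all conditions came from the same 5 preparations, a paired fit was made as well, with the preparation as a block and only genes passing the filterByExpr filter of edgeR. It raised the number of members called from 3 to 6 after 2 h Bic, from 1 to 5 in the SP total effect, from 2 to 4 in the LP passive effect and from 3 to 8 in the LP active effect. Of all genes this fit tested, it called 29.3%, 27.3%, 32% and 62.1% in these 4 comparisons. In the LP total effect it called 9 of 10 members and 56.6% of all genes, and against LP TBOA 6 members and 47.4%. The members it added are named with their paired values below.

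**Figure D2:**
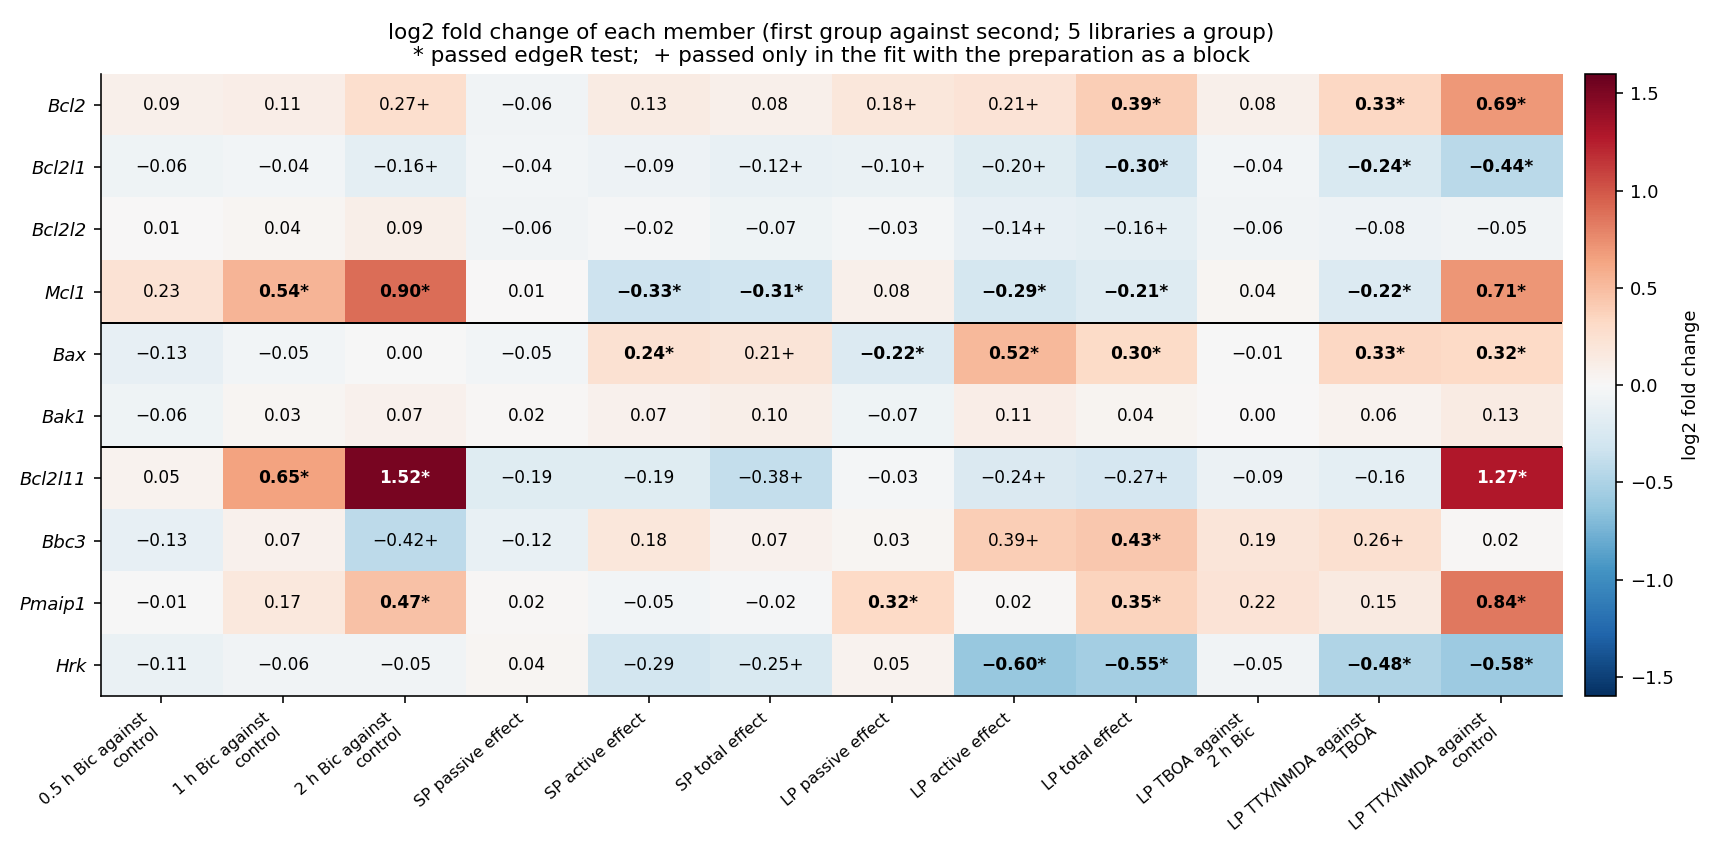
Log2 fold change (number and colour) of the 10 members (rows, lines part the roles) in 12 comparisons (columns), the first-named condition against the second. A star marks a call by edgeR's quasi-likelihood test and a plus a call in the paired fit alone; Mcl1 and Bcl2l11 are starred at 1 h and 2 h Bic and 7 members in the LP total effect.

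Among the pro-survival members, Mcl1 (ENSMUSG00000038612, chr3:95658788-95663176, GRCm38, plus strand), which encodes the short-lived guard of Bax and Bak, rose with time in Bic. Its levels in preparations 1, 3, 6, 7 and 8 were 75.2, 92.7, 87.5, 101 and 89.3 CPM in the control, 127, 124, 126, 130.0 and 145 CPM after 1 h Bic, and 176, 163, 165, 167 and 168 CPM after 2 h Bic. The 3 groups did not overlap, and the level at 0.5 h (93.3 to 113 CPM) was higher than the control in 5 of 5 preparations without passing the test. Mcl1 rose by a log2 fold change of 0.54 (SE 0.08, adjusted p = 1.42e-05) after 1 h and 0.90 (SE 0.08, adjusted p = 5.02e-11) after 2 h. Silencing did not lower it measurably: with TTX it stood at 132 ± 9.26 CPM in the SP and 178 ± 3.60 CPM in the LP, with log2 fold changes against Bic of 0.01 (95% interval −0.13 to 0.15) and 0.08 (−0.04 to 0.19). When TTX was added, after 0.5 h Bic in the SP and 1 h Bic in the LP, its means were 105 and 130 CPM. All TTX libraries lay above those Bic libraries, a comparison that was not tested. Mcl1 was thus also higher after the silenced phase than before it. With TTX/NMDA Mcl1 was lower than with TTX. With SP TTX/NMDA it was 90.9, 109, 104, 115 and 108 CPM in preparations 1, 3, 6, 7 and 8 against 117, 132, 139, 139.7 and 131 CPM with TTX, and with LP TTX/NMDA it was 134, 165, 142, 149.6 and 143 CPM against 174, 184, 177, 177 and 178 CPM. Every TTX/NMDA library was below every TTX library in both protocols. Mcl1 was lower than with TTX by 0.33 on the log2 scale in the SP (SE 0.07, adjusted p = 0.00242) and by 0.29 in the LP (SE 0.06, adjusted p = 0.00111), and each of the 10 other settings kept both calls. The size of this active effect did not differ measurably between the protocols (log2 difference 0.06, 95% interval −0.13 to 0.25, adjusted p = 0.939). With TTX/NMDA the means of Mcl1 were 105 CPM in the SP and 147 CPM in the LP, against 105 and 130 CPM when NMDA was added. By mean, the active effect on Mcl1 is thus a difference from TTX and not a fall from the level at which NMDA was added. Against uninterrupted Bic, Mcl1 was lower by 0.31 in the SP (adjusted p = 0.00423) and by 0.21 in the LP (adjusted p = 0.0205), the latter in 4 of 5 preparations, and the LP call was lost without preparation 1 (adjusted p = 0.220), 6 (0.102) or 7 (0.0710). Even so, Mcl1 with LP TTX/NMDA was higher than in the control by a log2 fold change of 0.71 (SE 0.09, adjusted p = 7.43e-08).

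Bcl2l1 (ENSMUSG00000007659, chr2:152780668-152831728, minus strand), whose product Bcl-xL is a main pro-survival protein of neurons, moved the other way over the experiment. It was highest in the control, at 119, 121, 124, 127 and 107 CPM in preparations 1, 3, 6, 7 and 8, stood at 105, 109, 115, 114 and 98.3 CPM after 2 h Bic, and was lowest with LP TTX/NMDA, at 88.8, 87.3, 86.6, 100.3 and 81.1 CPM. All LP TTX/NMDA libraries were below all control libraries, and each was below the 2 h Bic library of its own preparation. It fell by 0.30 on the log2 scale in the LP total effect (SE 0.07, adjusted p = 0.00181) and by 0.44 against the control (SE 0.08, adjusted p = 0.000136). The steps that lead there were smaller. The log2 fold change was −0.16 for 2 h Bic against the control (adjusted p = 0.263, paired fit 0.0348), −0.10 for the LP passive effect (0.530, paired fit 0.0376), −0.12 for the SP total effect (0.386, paired fit 0.0481) and −0.20 for the LP active effect (0.0580, paired fit 0.00622). The first 3 were called in the paired fit alone, and the last also with all 45 libraries in the fit (0.0289) and without preparation 8 (0.0359). Bcl2l1 was lower with LP TTX/NMDA than with LP TBOA by 0.24 (adjusted p = 0.0163), a call lost without preparation 3 (0.0620).

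Bcl2 (ENSMUSG00000057329, chr1:106538178-106714274, minus strand), the founder of the family and the scarcest of its pro-survival transcripts here, was highest with LP TTX/NMDA. Its levels in preparations 1, 3, 6, 7 and 8 were 10.1, 12.6, 12.4, 15.2 and 13.9 CPM in the control, 15.8, 13.9, 15.7, 19.1 and 14.5 CPM after 2 h Bic, 14.8, 17.6, 19.3, 20.3 and 17.6 CPM with LP TTX, and 18.6, 21.9, 21.5, 24.1 and 19.1 CPM with LP TTX/NMDA. Within every preparation the LP TTX/NMDA library was the highest of these 4, and the LP TTX/NMDA group lay above the control group without overlap. Bcl2 rose in the LP total effect by a log2 fold change of 0.39 (SE 0.10, adjusted p = 0.00217) and against the control by 0.69 (SE 0.11, adjusted p = 7.58e-06). Of the steps, 2 h Bic (0.27, adjusted p = 0.123, paired fit 0.0191), the LP passive effect (0.18, 0.393, paired fit 0.0438) and the LP active effect (0.21, 0.111, paired fit 0.000888) were called in the paired fit alone. It was higher with LP TTX/NMDA than with LP TBOA by 0.33 (adjusted p = 0.0136), a call lost without preparation 6 (0.0688). The glial markers given above rose in the same libraries.

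Bcl2l2 (ENSMUSG00000089682, chr14:54883377-54888234, plus strand), which encodes Bcl-w, was the steadiest member, with condition means between 95.8 and 106 CPM. It was not called in any comparison, although with LP TTX/NMDA it was lower than after 2 h Bic in 5 of 5 preparations (log2 fold change −0.16, adjusted p = 0.106). The paired fit called that difference (adjusted p = 0.0223) and the LP active effect (−0.14, unpaired adjusted p = 0.194, paired fit 0.0380), and the former was also called without preparation 8 (0.0429). In the annotation, 13.3% of its exon bases are shared with the same-strand gene Gm20521, which had 0 reads. Reads overlapping several genes were not counted, so its counts come from the remaining bases.

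Of the effectors, Bax (ENSMUSG00000003873, chr7:45461697-45466898, minus strand) responded to NMDA and Bak1 (ENSMUSG00000057789, chr17:27019810-27029009, minus strand) gave no call in any comparison. Bax in preparations 1, 3, 6, 7 and 8 was at 38.6, 37.6, 33.5, 37.2 and 37.2 CPM with LP TTX and at 56.5, 49.1, 51.1, 62.4 and 45.7 CPM with LP TTX/NMDA. The lowest TTX/NMDA library was above the highest TTX library. Bax rose by a log2 fold change of 0.52 in the LP active effect (SE 0.08, 95% interval 0.35 to 0.68, adjusted p = 1.29e-05), and all 10 other settings kept this call. After 2 h of Bic alone its levels were 42.7, 41.7, 42.6, 44.3 and 41.3 CPM, all below the LP TTX/NMDA libraries and all above those with LP TTX. The LP total effect was thus smaller, at 0.30 (SE 0.08, adjusted p = 0.00402), and the LP passive effect had the opposite sign, at −0.22 (SE 0.06, adjusted p = 0.0477). That fall with TTX was close to the threshold, with adjusted p-values of 0.0774, 0.137, 0.287, 0.246 and 0.0603 without preparation 1, 3, 6, 7 or 8 and 0.258 with all 45 libraries, while the paired fit gave 0.00107.

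In the SP, Bax was at 39.9, 40.8, 42.2, 37.4 and 38.7 CPM with TTX and at 50.2, 46.3, 41.5, 51.7 and 47.3 CPM with TTX/NMDA in preparations 1, 3, 6, 7 and 8. Preparation 6 alone did not go up, and the groups overlapped through it. The rise of 0.24 (SE 0.07, adjusted p = 0.0422) was not called without preparation 1 (0.171), 3 (0.111), 7 (0.309) or 8 (0.0707) or with all 45 libraries (0.107), and the SP total effect of 0.21 was called in the paired fit (unpaired adjusted p = 0.159, paired 0.00870) and without preparation 8 (0.0301). The active effect on Bax was larger in the LP than in the SP in 5 of 5 preparations. The difference of 0.29 on the log2 scale (SE 0.11) had an adjusted p = 0.181, and 0.0364 in the paired fit, which called 25% of all genes. Bax was also higher with LP TTX/NMDA than with LP TBOA (0.33, SE 0.08, adjusted p = 0.00341, without overlap) and than in the control (0.32, SE 0.10, adjusted p = 0.0243). The latter call was lost with DESeq2 (0.0584) and without preparation 1 (0.125), 6 (0.0839) or 7 (0.0869), and the control library of preparation 3, at 56.5 CPM, stood within the TTX/NMDA range.

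Bak1, which can form the same kind of pore as Bax, stayed between condition means of 16.2 and 18.6 CPM. Its log2 fold change in the LP active effect was 0.11 (95% interval −0.07 to 0.28, adjusted p = 0.405) and in the LP total effect 0.04 (−0.13 to 0.22). The upper end of the first interval is below the lower end of that of Bax, and the difference between both genes was not tested. Bax shares 12.2% of its exon bases with the same-strand gene Gm45808, which had 0 reads, and Bak1 shares exon bases with a gene on the opposite strand, from which the strand-specific counts keep it apart.

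Among the BH3-only members, Bcl2l11 (ENSMUSG00000027381, chr2:128126038-128162547, plus strand), encoding Bim, had the largest fold change of any member in the 12 comparisons of conditions. It was at 6.88, 6.34, 6.69, 5.54 and 6.77 CPM in the control, 9.99, 9.81, 11.9, 8.72 and 9.66 CPM after 1 h Bic, and 19.3, 20.3, 20.9, 15.9 and 16.2 CPM after 2 h Bic in preparations 1, 3, 6, 7 and 8. These 3 groups were fully apart, while the 0.5 h libraries (5.73 to 8.05 CPM) overlapped the control. Bcl2l11 rose by a log2 fold change of 0.65 after 1 h (SE 0.12, adjusted p = 0.000477) and 1.52 after 2 h (SE 0.11, adjusted p = 2.29e-13), a 2.87-fold rise. With TTX it was at 18.2 ± 2.47 CPM in the LP (log2 fold change −0.03 against 2 h Bic, 95% interval −0.22 to 0.16). All these TTX libraries lay above those of 1 h Bic, the time at which TTX was added, a comparison that was not tested. With LP TTX/NMDA it was lower than with TTX in 5 of 5 preparations, at 15.5 ± 2.92 CPM, still 2.42 times the fitted control level (adjusted p = 5.65e-10). The decreases with NMDA were −0.24 in the LP active effect (adjusted p = 0.130, paired fit 0.00792), −0.27 in the LP total effect (0.0723, paired fit 0.0126, without preparation 8 0.0157) and −0.38 in the SP total effect (0.0591, paired fit 0.00288, DESeq2 0.0258, without preparation 3 0.0479 and without 8 0.0174). Mcl1 and Bcl2l11, a pro-survival gene and an antagonist of its product, therefore both rose after 1 h and 2 h Bic, and TTX in the second phase did not measurably lower either.

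Pmaip1 (ENSMUSG00000024521, on chromosome 18), encoding the Mcl-1 antagonist Noxa, increased later. Its levels in preparations 1, 3, 6, 7 and 8 were 8.18, 12.5, 10.1, 12.6 and 9.94 CPM in the control, 14.5, 16.8, 13.9, 16.5 and 13.6 CPM after 2 h Bic, 16.8, 19.8, 18.7, 21.3 and 17.9 CPM with LP TTX, and 17.6, 22.9, 16.4, 21.3 and 18.5 CPM with LP TTX/NMDA. The 2 h libraries lay above all controls, and all libraries with LP TTX above all of 2 h Bic. Pmaip1 rose by 0.47 on the log2 scale after 2 h Bic (SE 0.11, adjusted p = 0.00301) and by a further 0.32 in the LP passive effect (SE 0.09, adjusted p = 0.0211). The latter call was lost without preparation 6 (0.0889) or 7 (0.0739) and with all 45 libraries (0.0634). NMDA on top of TTX added no measurable change (log2 fold change 0.02, 95% interval −0.17 to 0.22, adjusted p = 0.896), so the LP total effect of 0.35 (SE 0.10, adjusted p = 0.00611) was close to the passive one. With LP TTX/NMDA it was 0.84 above the control (SE 0.12, adjusted p = 8.53e-07). The passive effect was larger in the LP than in the SP in 5 of 5 preparations, by 0.30 on the log2 scale, at an adjusted p = 0.837 (paired fit 0.0521).

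Hrk (ENSMUSG00000046607, chr5:118164648-118189478, plus strand), a BH3-only gene with a known role in neurons deprived of trophic support, was steady under AP firing and decreased with NMDA. Its condition means were 162 ± 24.5 CPM in the control, 157 ± 20.6 CPM after 2 h Bic and 163 ± 24.3 CPM with LP TTX. With LP TTX the 5 libraries were at 169, 183, 151, 128 and 186 CPM and with LP TTX/NMDA at 115, 116, 102, 72.6 and 136 CPM in preparations 1, 3, 6, 7 and 8. Each preparation dropped, and the groups overlapped only because preparation 7 was low and preparation 8 high in both. Hrk fell by 0.60 in the LP active effect (SE 0.11, 95% interval −0.82 to −0.38, adjusted p = 9.11e-05), by 0.55 in the LP total effect (SE 0.10, adjusted p = 7.64e-05), by 0.48 against LP TBOA (SE 0.11, adjusted p = 0.00156) and by 0.58 against the control (SE 0.11, adjusted p = 0.000136), and all 10 other settings kept these 4 calls. In the SP it was at 190.2, 185, 109, 134 and 183 CPM with TTX and 129.6, 143, 126, 92.4 and 167 CPM with TTX/NMDA. Preparation 6, whose SP TTX library did not deviate with its preparation, went up while the other 4 went down. The SP active effect of −0.29 was not called (adjusted p = 0.226), but was without preparation 6 (−0.39, 0.0120) or 8 (−0.34, 0.000609), and the SP total effect of −0.25 (0.203) was called in the paired fit (0.00204) and without preparation 8 (0.00226). The active effect was stronger in the LP in 5 of 5 preparations (−0.30, adjusted p = 0.553, paired fit 0.0546).

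Bbc3 (ENSMUSG00000002083, chr7:16308393-16318205, plus strand), encoding Puma, differed more between preparations than between conditions. After 2 h Bic it was at 19.4, 16.9, 20.7, 14.2 and 34.6 CPM, with LP TTX at 20.6, 22.3, 20.9, 14.7 and 30.4 CPM and with LP TTX/NMDA at 29.5, 27.2, 24.4, 19.97 and 41.7 CPM in preparations 1, 3, 6, 7 and 8. Every preparation was higher with TTX/NMDA than with TTX or Bic, and all groups overlapped. The LP total effect of 0.43 (SE 0.15) was called (adjusted p = 0.0412) but not with filterByExpr (0.109), DESeq2 (0.269), all 45 libraries (0.161) or without preparation 1 (0.0885). The LP active effect of 0.39 (SE 0.15) was just over the threshold (0.0536) and was called in the paired fit (7.50e-06), with RLE scaling (0.0493) and without preparation 3 (0.0492), 6 (0.0488), 7 (0.0214) or 8 (0.00165). After 2 h Bic it was lower than in the control in 5 of 5 preparations (−0.42, adjusted p = 0.102), a difference called in the paired fit (0.00396) and without preparation 6 (0.0119), 7 (0.0462) or 8 (0.000746). Against LP TBOA, the 0.26 (adjusted p = 0.212) was called in the paired fit (0.00319) and without preparation 8 (0.0398). With LP TTX/NMDA Bbc3 stood at the control level, 28.6 ± 8.15 against 28.2 ± 7.49 CPM.

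**Figure D3:**
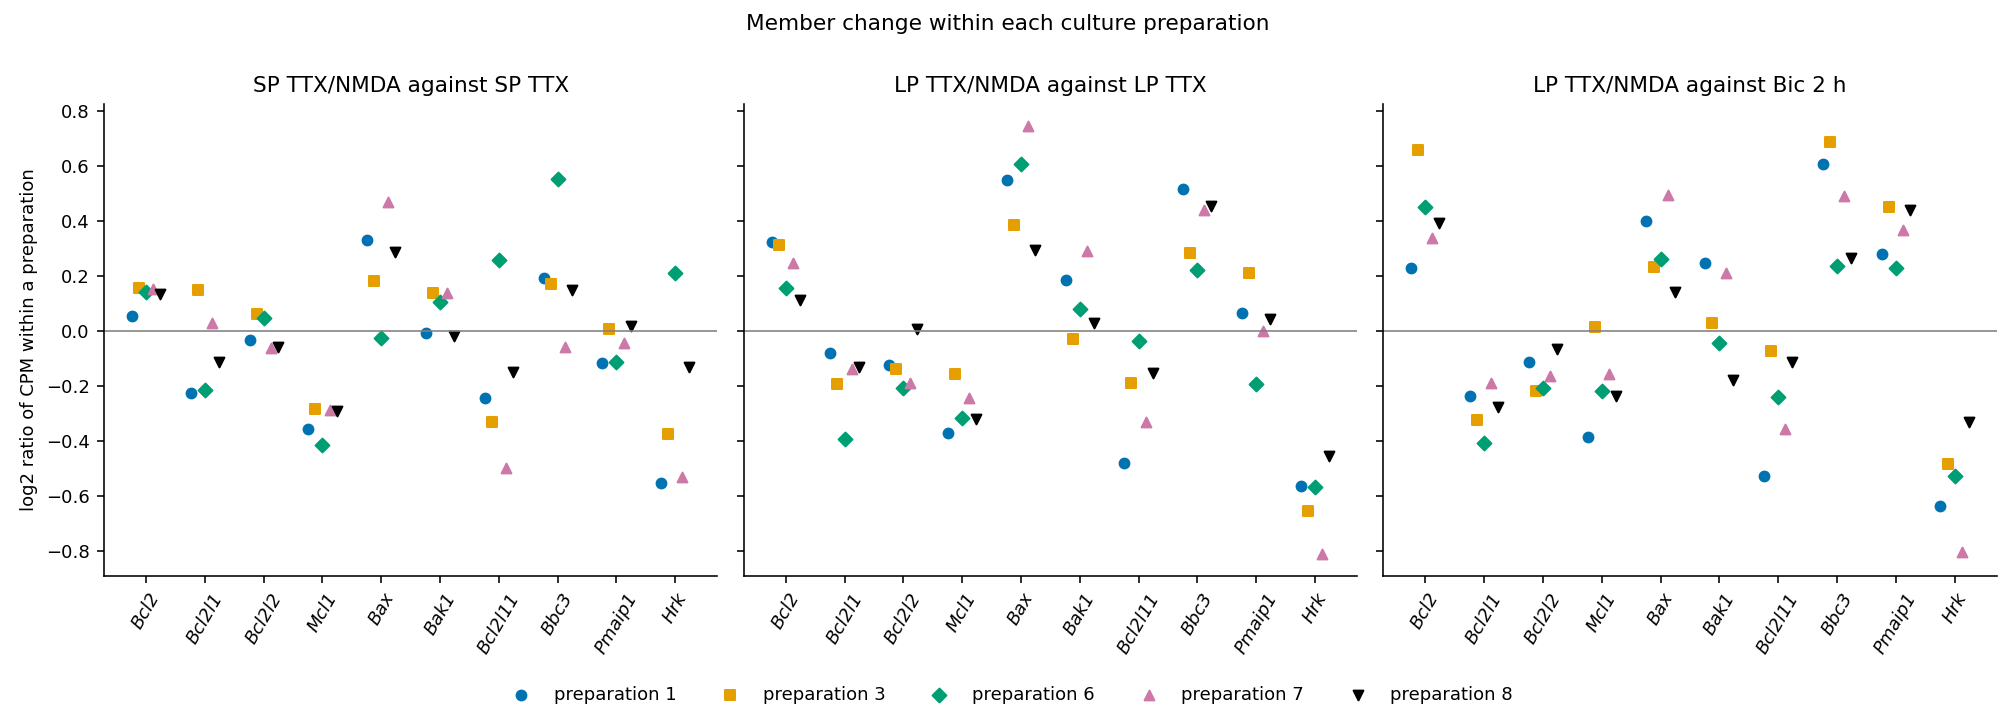
Log2 ratio of CPM within each culture preparation (vertical axis, 5 points a member) for the active effect in the SP and the LP and the total effect in the LP. In the LP active effect all 5 points of Mcl1 and Hrk are below 0 and all 5 of Bax and Bbc3 above it, and in the SP preparation 6 (green) departs from the rest for Bcl2l11, Bbc3 and Hrk.

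The share of the variation in log2 CPM that lay between conditions or between preparations set the members apart. Conditions held 93.7% of the sum of squares over 45 libraries for Mcl1, 91.2% for Bcl2l11 and 80.4% for Pmaip1, and preparations 2.38%, 4.56% and 10.7%. For Bbc3 the order was reversed, with 19.7% between conditions and 65.3% between preparations, and for Hrk it was 37.5% and 50.8%. Preparation 8 ran at 1.52 times the geometric mean of the 5 preparations for Bbc3 and 1.18 times for Hrk, and preparation 7 at 0.77 and 0.783 times. Bcl2l2, which hardly moved with treatment, also had most of its variation between preparations (62.7%), but with preparation 1 highest at 1.09 times and preparation 3 lowest at 0.932 times. What distinguished the preparations is not given in the labels.

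**Figure D4:**
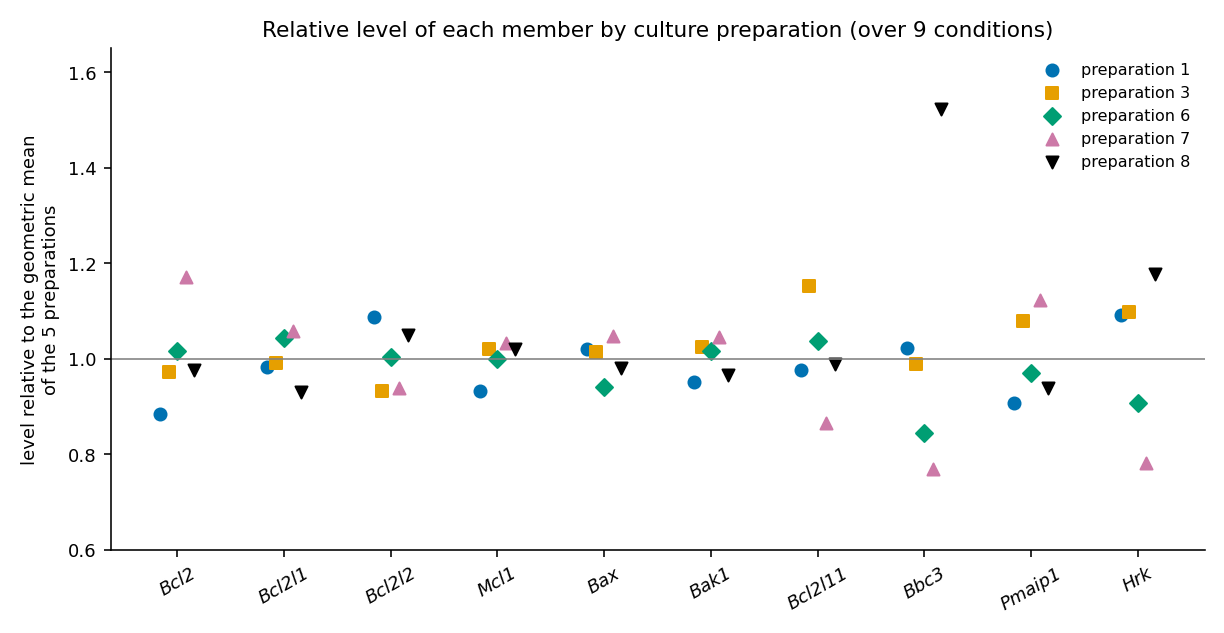
Level of each member in the 5 culture preparations, averaged over the 9 conditions and divided by the geometric mean of the preparations (vertical axis; 1 is the mean level). For Bbc3 preparation 8 is at 1.52 and preparation 7 at 0.77, and for Mcl1 all 5 lie between 0.93 and 1.03.

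Summed per length, the pro-survival transcripts went from 75.8 ± 2.70 CPM per kilobase in the control (73.5 to 79.9) to 98.2 ± 2.25 after 2 h Bic (95.8 to 101). They were at 99.6 ± 2.37 with LP TTX (96.6 to 103) and 86.0 ± 2.40 with LP TTX/NMDA (83.8 to 89.2), so that LP TTX/NMDA lay between the control and 2 h Bic without overlapping either. In the SP the sum was 86.7 ± 3.10 with TTX and 77.7 ± 2.37 with TTX/NMDA. Of the single members, Mcl1 went from 26.1 ± 2.70 CPM per kilobase in the control to 49.0 ± 1.41 after 2 h Bic and 42.9 ± 3.33 with LP TTX/NMDA, and made up 34.4% ± 3.09, 49.9% ± 0.89 and 49.8% ± 2.65 of the sum. Its share was thus nearly the same after 2 h Bic and with LP TTX/NMDA, since the mean of Bcl2l1 was also lower there (19.4 against 23.6 CPM per kilobase), as was that of Bcl2l2 (21.5 against 23.8). The effectors summed to 33.8 ± 5.54 CPM per kilobase in the control, 30.5 ± 1.39 with LP TTX and 41.3 ± 4.80 with LP TTX/NMDA, and the latter 2 did not overlap. The BH3-only sum stayed between condition means of 41.5 and 48.2 CPM per kilobase with wide ranges. Hrk, the most abundant of them, made up 61.4% ± 2.73 of that sum in the control and 45.7% ± 2.96 with LP TTX/NMDA, while Bcl2l11 went from 1.75% ± 0.20 in the control to 5.14% ± 0.85 after 2 h Bic. These sums weigh mRNA molecules equally and say nothing of protein, and no test was run on them.

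**Figure D5:**
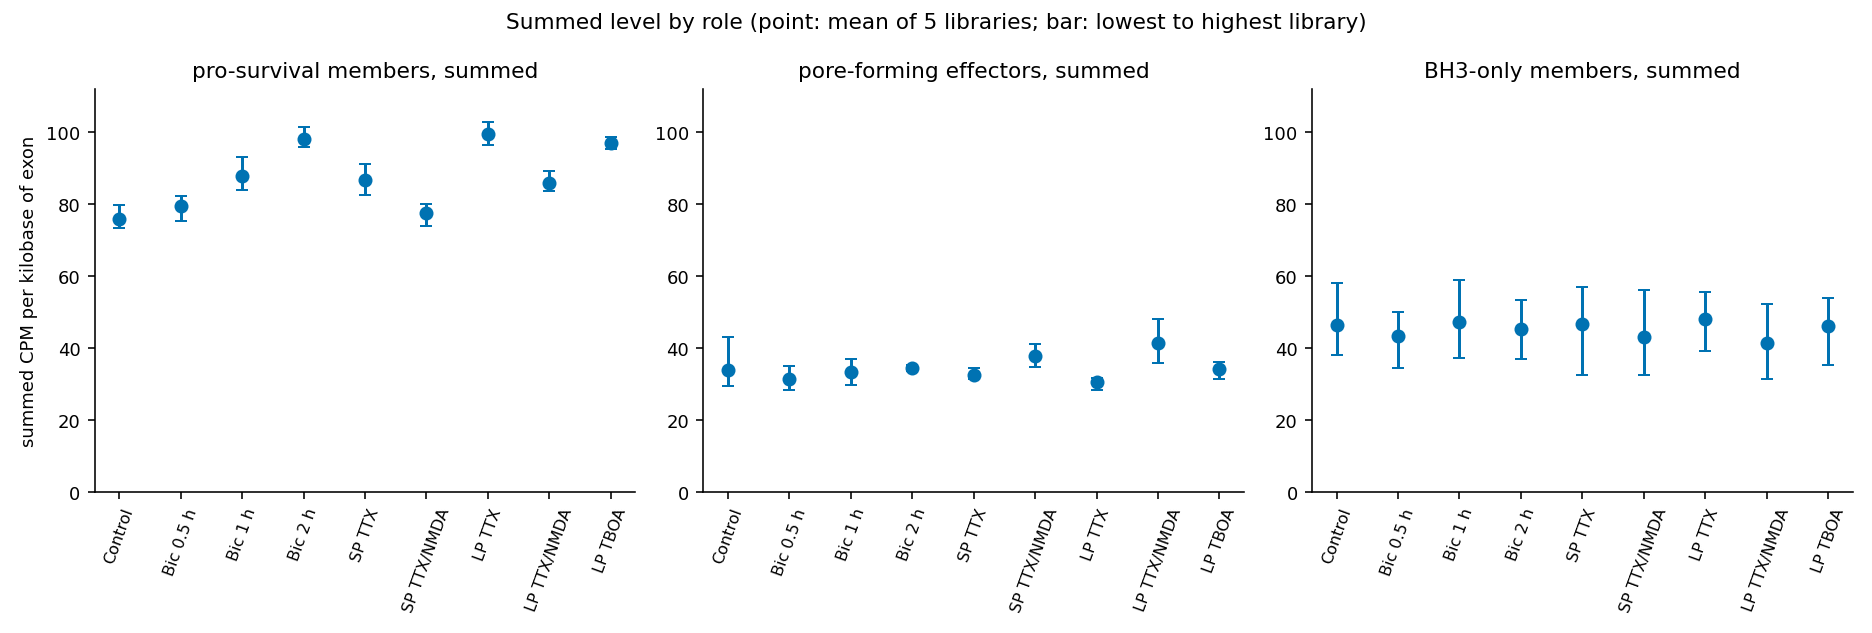
Summed CPM per kilobase of exon (vertical axis, from 0) of the 4 pro-survival, 2 effector and 4 BH3-only members in the 9 conditions (horizontal axis). Points are means of 5 libraries and bars span the lowest to the highest; the pro-survival sum is 98.2 after 2 h Bic and 86.0 with LP TTX/NMDA.

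With TBOA, which lets synaptic glutamate spill over, none of the 10 members was called against 2 h Bic, in the paired fit (2.67% of all genes) or under the other 9 settings. Mcl1 was at 170.4 ± 5.17 CPM with LP TBOA and 168 ± 4.81 CPM after 2 h Bic (log2 fold change 0.04, 95% interval −0.08 to 0.15), Bax at 42.01 ± 2.96 and 42.5 ± 1.13 CPM (−0.01, −0.15 to 0.12) and Hrk at 150.0 ± 27.3 and 157 ± 20.6 CPM (−0.05, −0.23 to 0.13). The intervals for Bax and Hrk do not reach the sizes of the LP total effect on these genes, which has the same 2 h Bic reference. TBOA was given without TTX, so the 2 interventions also differ in that. Pmaip1 had the largest value, 0.22 (0.05 to 0.40), at an adjusted p = 0.460. Set against TBOA, LP TTX/NMDA had Bcl2 and Bax higher and Bcl2l1, Mcl1 and Hrk lower, as given above, and the call for Mcl1 (−0.22, adjusted p = 0.0203) was lost without preparation 1 (0.117) or 8 (0.0520).

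The genes that work with the family were described from lists chosen by function. Of 15 further Bcl2 family genes, all tested, 1 was higher and 1 lower in the LP active effect, where 11.6% of all genes were higher and 11.8% lower. These were Bad (log2 fold change 0.27, adjusted p = 0.0128), a BH3-only gene controlled by growth factor signalling, and Bcl2l13 (−0.49, adjusted p = 8.38e-07). After 2 h Bic, where 4.24% of all genes were higher and 4.78% lower, 1 of 15 was lower, Bcl2a1b (−2.10, 0.0255), whose near-identical copies make its counts uncertain. The median log2 fold change of this list in the LP active effect was 0.04. Among genes of the apoptosome and the caspases, the initiator Casp8 (0.92, adjusted p = 0.00410) and Casp6 (0.48, 0.0270) were higher in the LP active effect, and Apaf1, the scaffold onto which cytochrome c assembles the initiator caspase, was lower (−0.31, 0.00318). Of 7 caspase inhibitors and their antagonists, 2 were higher in the LP active effect, Birc3 (0.99, 0.0174) and Diablo (0.43, 0.00849), whose product frees caspases from inhibition, and 2 lower, Birc6 (−0.47, 1.01e-05) and Xiap (−0.25, 0.00907), with a median of 0.12. After 2 h Bic, Birc3 was higher (1.08, 0.0428) and Birc2 lower (−0.32, 0.0103).

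The 4 listed genes that act on the turnover of Mcl-1 protein were all lower with TTX/NMDA than with TTX, as Mcl1 itself was. These are the ubiquitin ligase genes Huwe1, Fbxw7 and Btrc, whose products mark Mcl-1 for degradation, and Usp9x, whose product removes that mark. All 4 of 4 were lower in the SP active effect (median −0.27, against 3.32% of all genes lower) and in the LP active effect (median −0.45, against 11.8%). Over genes passing the filterByExpr filter, 1063 of 15705 were lower in the SP and 3736 of 16399 in the LP. The list was chosen with earlier results of these data known, so its count is a description. In the LP active effect, Usp9x was lower by 1.01 (adjusted p = 4.59e-12), Huwe1 by 0.52 (4.28e-07) and Fbxw7 by 0.38 (0.000108). Of 8 transcription factors known to act on BH3-only genes, Trp73 (0.75, adjusted p = 0.0133) and Trp53 (0.25, 0.0343) were higher and Foxo1 lower (−0.38, 0.000973) in the LP active effect, with a median of −0.08. After 2 h Bic, Jun (2.58, adjusted p = 1.80e-20) and Atf4 (0.39, 0.00108) were higher and Foxo1 lower (−0.42, 0.000191). The astrocyte and oligodendrocyte lineage markers given above rose in the same LP TTX/NMDA libraries.

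For the members that spanned more than 1 log2 unit over the 9 condition means, the genes with the most similar pattern were sought among 13592 genes with a mean of at least 1 CPM. For Mcl1, which spanned 1.00 on the log2 scale, these were Sertad3 (Pearson's r = 0.988), the activity-induced nuclear receptor gene Nr4a2 (0.986) and Gm45902 (0.982). For Bcl2l11, which spanned 1.52, they were the chromatin assembly gene Chaf1b (0.995), Plat (0.994), which encodes tissue plasminogen activator, and Coq10b (0.993). These correlations rest on 9 points that share their libraries and are given as a description.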

How the data were processed

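Poly-A RNA of 45 libraries (5 culture preparations in each of 9 conditions) was sequenced in single-end mode with 75 cycles after a strand-specific library preparation. The authors demultiplexed the reads with bcl2fastq 2.20.0.422, aligned them to GRCm38 (Ensembl release 94) with STAR 2.5.4b and counted sense-strand reads per gene with featureCounts 1.6.5, leaving out multi-mapping and multi-overlapping reads. The deposited table holds these raw counts, and no replicate was pooled. Per-kilobase values use the exon union of each gene from GENCODE M21, which also gave names and positions.

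Counts were tested with edgeR 4.0.16 (R 4.3.3, limma 3.58.1), using TMM scaling and the quasi-likelihood test on the 10 libraries of each comparison, over genes with at least 1 read, with Benjamini-Hochberg adjustment over all genes tested and calls at an adjusted p under 0.05. Differences between protocols were interaction terms over 20 libraries. CPM values were TMM-scaled over all 45 libraries. Alternatives were RLE scaling, DESeq2 1.42.0, the filterByExpr filter, the preparation as a block over filterByExpr genes, 1 fit to all 45 libraries, and leaving out each preparation. The scripts were tested on simulated data, where the unfiltered edgeR fit and DESeq2, without preparation effects, both made more false calls than the threshold allows, so calls just under the threshold deserve caution under either. With preparation effects simulated, the unpaired fit missed the smallest changes, so a small change without a call may still be present. It found 0% of the 1.25-fold and 90% of the 1.5-fold changes, with 6.45% of its calls false. On the same simulated counts, the paired fit over filterByExpr genes found 46% and 98%, with 2.27% of its calls false. Upstream windows came from RefSeq (GRCm38.p6), and figures were drawn with matplotlib 3.10.9.

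Pairing rests on the culture preparation in the labels. Libraries of 1 preparation deviated together from their condition means (mean r = 0.45 across 13592 genes, against −0.11 for different preparations), but not in every pair: in the comparisons made, r was below 0 only for pairs with preparation 6 of SP TTX or LP TBOA, and was 0.04 for preparation 3 between 0.5 h Bic and the control.

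All 10 members are named. Of each other list, at most 3 genes per direction are named, those with the largest absolute log2 fold change among calls in the LP active effect or after 2 h Bic. For members whose condition means span over 1 log2 unit, the 3 genes of most similar pattern are named. The members and lists were chosen with earlier results of these data known. The list of apoptosome and caspase genes is given in part, and the rest of it is not reported here.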

Additional observations from a re-analysis of the deposited data

Results flagged for a closer look

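Each member was examined in each condition for a library that stood apart from the other 4, by Dixon's ratio of the gap to the range with a critical value of 0.71. Of 90 groups of 5 libraries, 3 held such a library, where chance gives about 5% of groups. Bax with LP TTX was lowest in preparation 6, at 33.5 CPM, with the next library at 37.2 CPM. Without that preparation the LP passive effect on Bax had an adjusted p = 0.287 (from edgeR, with Benjamini-Hochberg adjustment). Bbc3 after 1 h Bic was highest in preparation 8, at 51.3 CPM, with the next at 28.4 CPM, and that preparation was the highest for Bbc3 in every condition. Pmaip1 with SP TTX was highest in preparation 7, at 15.3 CPM, with the next at 12.2 CPM. No call rests on the latter 2 groups.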

How the results depend on the processing

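No fold change that was called changed its sign under the alternatives run, and 49 signs changed among values called under neither setting. With the preparation as a replicate block, the number of members called was 6 after 2 h Bic, 5 in the SP total effect, 4 in the LP passive effect, 8 in the LP active effect and 1 for the difference of the active effect between the protocols. In the other 9 tests the block moved the number by less than 1.5 times. DESeq2 called 2 members in the SP total effect. The fit to all 45 libraries called 1 in the SP active and 0 in the LP passive effect. Leaving out 1 preparation gave 1 to 3 members in the SP active, 1 to 4 in the SP total, 0 to 1 in the LP passive and 3 to 5 in the LP active effect. Of 140 member values a setting, the side of the threshold changed for 1 with RLE scaling, 1 with filterByExpr, 3 with DESeq2, 5 with all 45 libraries and 18 with the block, and for 39 of 700 with 1 preparation left out. Depth was not limiting for most members, but Bcl2l11 and Pmaip1 had under 100 reads in their shallowest libraries. TMM and RLE assume that most genes do not change, which is least secure for LP TTX/NMDA.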
